A study of Mus musculus with 11 samples.

Results

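The clustered protocadherin genes (Pcdha, Pcdhb and Pcdhg) lie in a row on mouse chromosome 18 and were examined here for binding by 5 transcription factors (TFs). The region was taken from 50 kb before the first to 50 kb after the last gene of these names, which is chr18:37039939-38051527 on the build mm9 (1012 kb). A peak belonged to the region when its midpoint lay inside it, and 421 of the 1004445 peaks in the 10 deposited lists did so. These comprised 38, 39, 39, 24 and 42 peaks of ZIC2, OTX2, SOX2, POU5F1 and POU3F1 in EpiSCs, and 27, 57, 45, 69 and 41 peaks of the same TFs in activin-free cultures.

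EpiSCs (epiblast stem cells) are pluripotent cells that correspond to the late epiblast of the mouse embryo. The line had a 129/Sv background and was grown without feeder cells, with Fgf2 at 10 ng/ml and activin at 20 ng/ml, and the activin-free cultures were kept without activin for the last 18 h. In every library the TF came from a transiently transfected plasmid with the pCAGGS promoter and carried the BLRP tag, which the BirA enzyme biotinylates, so that streptavidin could pull down the bound chromatin. Each TF was profiled in 1 library per culture from 1 cell line, so there was no replicate error to set a value against, and differences between the cultures are differences between libraries. The lists hold no reads, and the sequencing depth behind them is unknown.

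Clustered protocadherins are cell surface proteins best known from neurons, in which combinations of isoforms give each cell a surface identity. In the alpha and gamma clusters, every large variable exon has a promoter of its own and is spliced to a set of constant exons shared by the whole cluster, whereas each beta gene consists of its variable exon alone. The variable exons of the C type (Pcdhac1, Pcdhac2, Pcdhgc3, Pcdhgc4 and Pcdhgc5) stand at the downstream end of their clusters and are known to be expressed more constantly than the others, which are chosen in varying combinations in neurons. CTCF and cohesin are known to connect the chosen promoters with downstream enhancers.

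In the mm9 sequence, 58 variable exons could be named, of which 14 were alpha, 22 beta and 22 gamma exons, and 4 further long reading frames were left unnamed. The promoter of an exon was taken as the 500 bp on either side of its start. This start was that of an annotated transcript for 41 exons and the start codon for 17. For Pcdhb1, Pcdhb6 and every annotated alpha start except that of Pcdha3, the annotated start was itself the start codon. The alpha cluster spanned 257 kb, the beta cluster 256 kb and the gamma cluster 168 kb, and gaps of 77.3 kb and 153 kb separated them. The gamma cluster as annotated began at Pcdhga3, so Pcdhga1 and Pcdhga2 lay in the second gap. Counts by cluster used this span, whereas promoter counts included both exons under gamma.

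The numbers of region peaks were close to what the list as a whole gave for some TFs and not for others. In EpiSCs the region held 37.6 ZIC2 peaks per Mb against 45.9 over all chromosomes, a ratio of 0.819, and in activin-free cultures the ratio was 0.6497. The ratio was 0.993 and 1.31 for OTX2, 1.01 and 1.43 for POU5F1, and 0.978 and 1.06 for POU3F1, in EpiSCs and activin-free cultures, respectively. For SOX2 it was 1.61 in EpiSCs and 1.35 in activin-free cultures. In the EpiSC SOX2 list, however, chromosome 18 as a whole held 5.88% of the peaks, against 2.51 to 3.77% in the other 9 lists, and relative to chromosome 18 the SOX2 ratio in the region was 0.935. The direction also turned for EpiSC ZIC2, whose ratio to chromosome 18 was 1.09 (0.886 in activin-free cultures). It turned as well for the small differences of OTX2 (1.15) and POU5F1 (0.936) in EpiSCs and POU3F1 (0.992) in activin-free cultures. OTX2 (1.36), SOX2 (1.22) and POU5F1 (1.32) in activin-free cultures stayed above 1. Whether the SOX2 excess on the chromosome has a technical source was not tested.

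The TFs were spread over the 3 clusters in different ways. In EpiSCs, 16 of the 38 ZIC2 peaks lay in the gamma cluster and only 4 each in the alpha and the beta cluster, which corresponds to 9.55, 1.55 and 1.56 peaks per 100 kb. POU3F1 had the opposite distribution, with 19 peaks in the alpha, 19 in the beta and 1 in the gamma cluster, or 7.38, 7.41 and 0.597 peaks per 100 kb. Gamma was therefore the densest of the clusters for ZIC2 and the sparsest for POU3F1.

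In activin-free cultures the same contrast was seen between 10 ZIC2 peaks in gamma, 4 in alpha and 2 in beta, and 2 POU3F1 peaks in gamma, 20 in alpha and 16 in beta. POU5F1 followed POU3F1, with 12, 7 and 1 peaks in alpha, beta and gamma in EpiSCs and 25, 26 and 7 in activin-free cultures. SOX2 also lay mainly in alpha and beta, with 12, 15 and 3 peaks in EpiSCs and 12, 16 and 3 in activin-free cultures. OTX2 had 11, 3 and 4 peaks in alpha, beta and gamma in EpiSCs and 16, 10 and 6 in activin-free cultures. The gap between alpha and beta held 4 and 9 OTX2 peaks, and that between beta and gamma 7 and 7. In the 50 kb past the gamma cluster there were 10 and 9, the highest OTX2 density of any compartment. Counted from Pcdhga1, gamma held 18 and 11 ZIC2 peaks and 1 and 2 POU3F1 peaks in EpiSCs and activin-free cultures. With only peaks of score 100 or more, gamma was still the densest cluster for ZIC2 (11 and 8 peaks) and the sparsest for POU3F1 (0 and 1) in both cultures. The base composition differed along with this, since the gamma cluster had 45.2% G and C and the alpha and beta clusters each had 40.4%. The peaks themselves had a median of 53.3% G and C for ZIC2 and 33.0% for POU3F1 in EpiSCs.

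**Figure D1:**
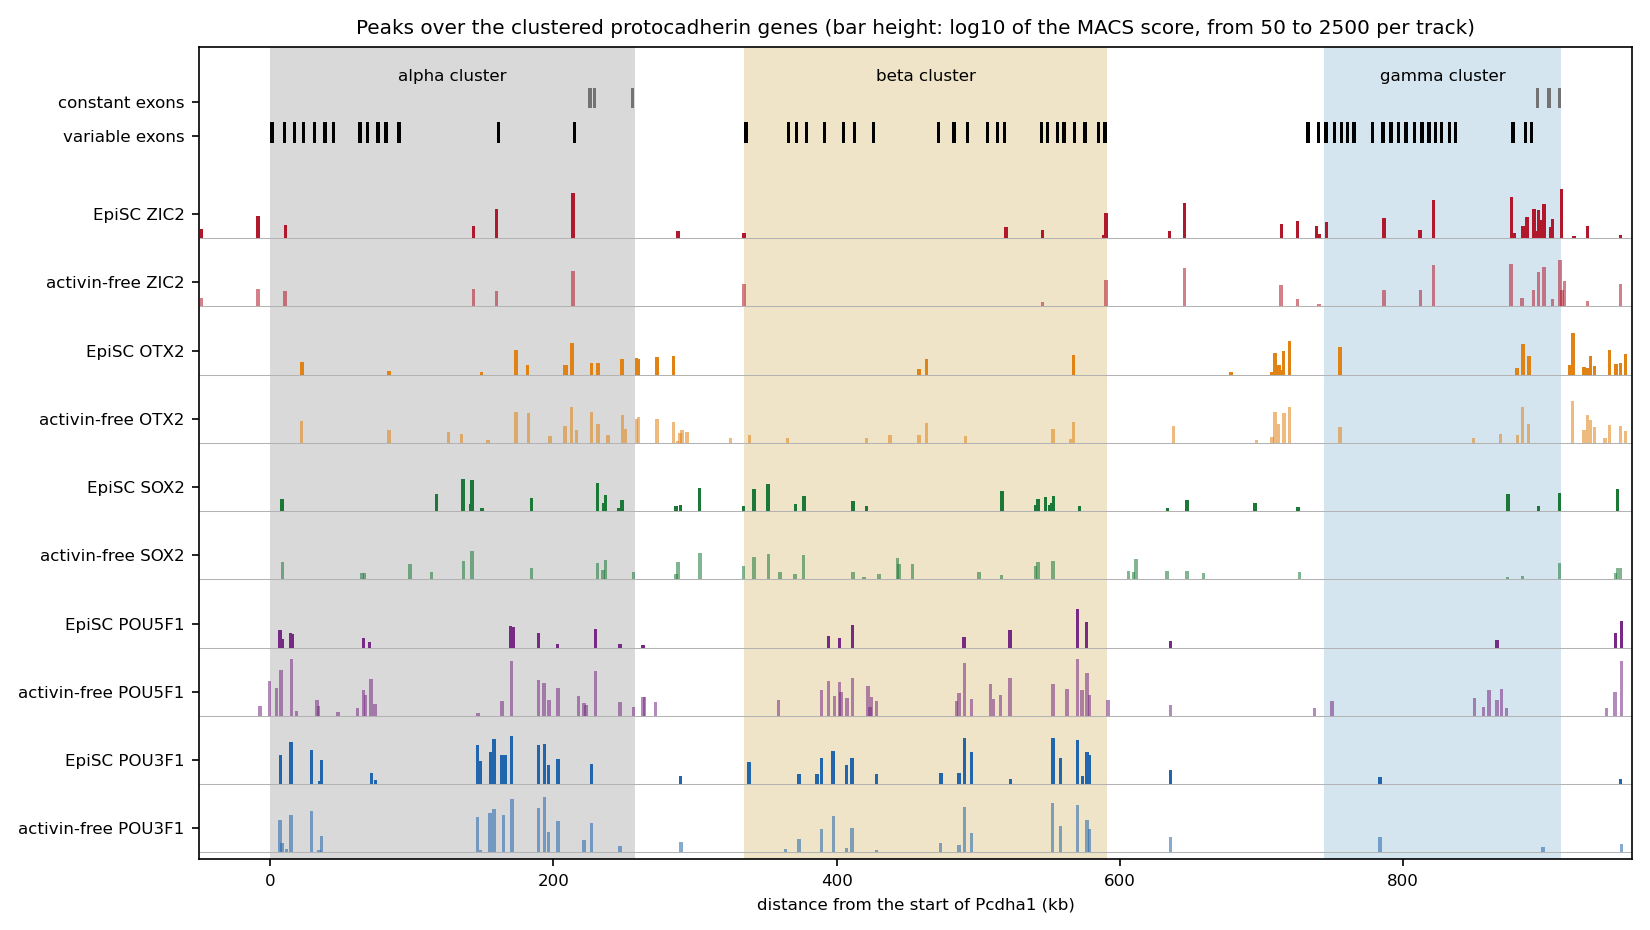
Peaks of the 10 lists along the region, with the distance from the start of Pcdha1 in kb on the horizontal axis and 1 track per list; the height of a bar is the log10 of the MACS score and bars are drawn wider than the peaks. ZIC2 bars concentrate at the downstream end of the gamma cluster, where POU3F1 has hardly any, and POU3F1 and POU5F1 bars fill the alpha and beta clusters.

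Most sites on this map belonged to a single TF. The joining of overlapping peaks of all lists gave 197 separate sites, and 139 of them held peaks of a single TF, 64 in both cultures. A further 22 sites held POU5F1 and POU3F1 only, whereas ZIC2 and POU3F1 met at 4. Sites were not joined over the whole lists, so it is unknown whether these numbers are particular to the region. Over the EpiSC lists, 14.8% of ZIC2 peaks overlapped OTX2, 1.16% of them POU3F1, and 51.7% of POU5F1 peaks overlapped POU3F1.

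Along the genes, the midpoints of POU and ZIC2 peaks lay in different places. None of the midpoints of the 24 and 69 POU5F1 peaks or of the 42 and 41 POU3F1 peaks fell between the start and the end of a variable exon, a space that makes up 14.5% of the region. In contrast, 14 of 38 ZIC2 midpoints (36.8%) in EpiSCs and 9 of 27 (33.3%) in activin-free cultures were inside one. This holds for midpoints only, since some POU peaks reached into an exon. In EpiSCs and activin-free cultures, 20.8% and 14.5% of POU5F1 peaks and 14.3% and 17.1% of POU3F1 peaks overlapped a variable exon. The shares were 50% and 44.4% for ZIC2, 10.3% and 10.5% for OTX2, and 12.8% and 4.44% for SOX2. The 2 kb upstream of the starts make up 11.26% of the region and held 33.3% and 29.0% of the POU5F1 midpoints and 28.6% and 26.8% of the POU3F1 midpoints, in EpiSCs and activin-free cultures. The 2 kb past the exons make up 8.28% of the region and held 16.7% and 24.6% for POU5F1 and 23.8% and 19.5% for POU3F1.

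OTX2 and SOX2 midpoints were inside a variable exon for 2 of 39 and 3 of 39 peaks in EpiSCs and for 4 of 57 and 2 of 45 in activin-free cultures. The exons had 52.0% G and C, against 37.7% in the 2 kb before and 37.4% in the 2 kb behind them. Of the 50-base stretches in the exons, 7.37% occurred again elsewhere in the region, against 0.338% before and 0.708% behind the exons. What part base composition or shared sequence had in the positions of the peaks was not tested.

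**Figure D2:**
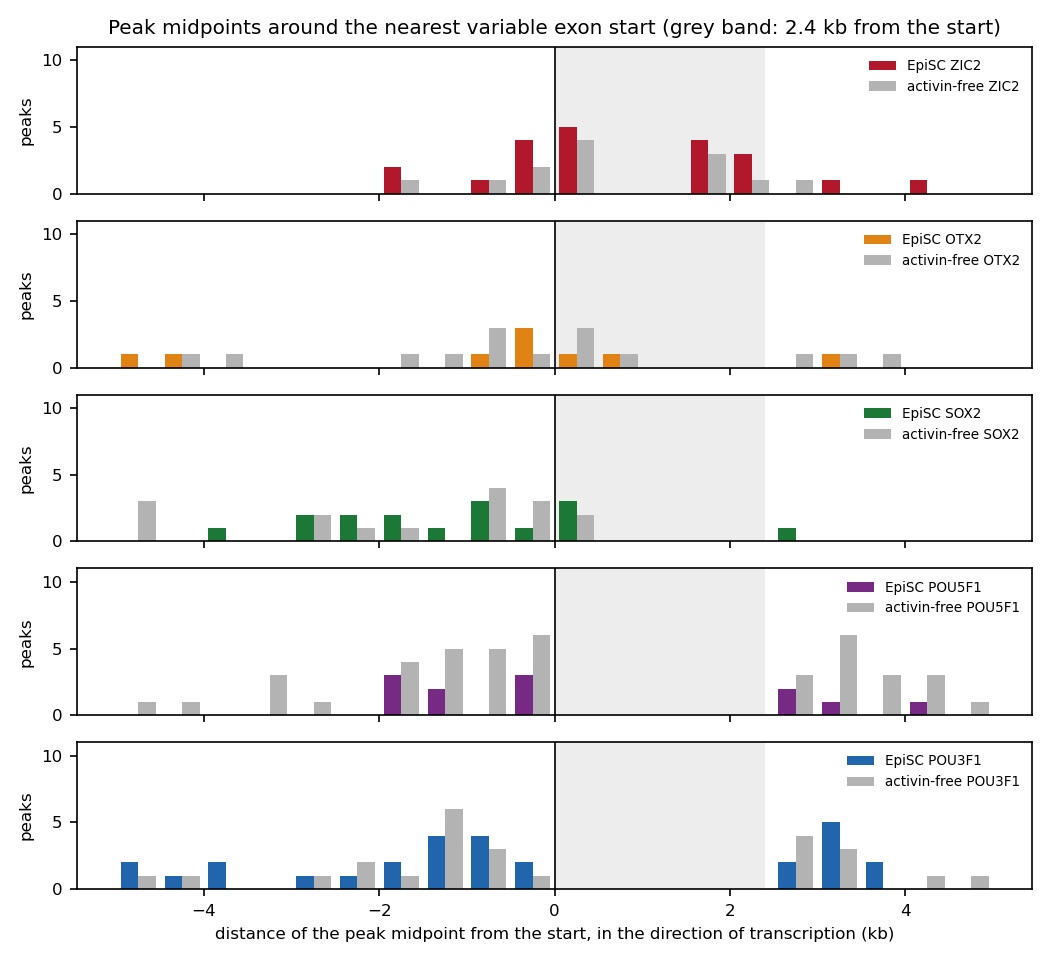
Numbers of peaks by the distance of their midpoint from the nearest variable exon start, in bins of 0.5 kb from 5 kb upstream to 5 kb downstream, with EpiSC peaks in colour and activin-free peaks in grey. The first 2.4 kb after the start, about the length of an exon, hold ZIC2 peaks at both ends but no POU5F1 or POU3F1 midpoint.

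Counted by overlap with the promoter window, ZIC2 was rarer than at other genes and the POU factors were more frequent. A ZIC2 peak overlapped the promoter of 9 of 58 variable exons (15.5%) in EpiSCs and 7 (12.1%) in activin-free cultures, whereas 65.7% and 63.9% of the 22367 protein-coding gene starts had one within the same distance. The gene starts were annotated starts, whereas the windows of 17 variable exons, and of the further ones named above, were centred on the start codon. OTX2 peaks were at 6 (10.34%) and 8 (13.8%) of the promoters, against 21.2% and 19.1% of all starts. The shares of both TFs were thus below those of genes in general.

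The other 3 TFs were above them. POU3F1 had peaks at 9 promoters (15.5%) in either culture, against 3.41% of all starts in EpiSCs and 4.62% in activin-free cultures. POU5F1 had 3 (5.17%) and 13 (22.4%), against 2.27% and 4.99%, and SOX2 had 7 (12.1%) and 8 (13.8%), against 4.13% and 8.37%. The EpiSC SOX2 list had 1.72 times as many peaks per Mb on chromosome 18 as over all chromosomes. Shares for the gene starts of chromosome 18 alone were not computed. The POU3F1 values depend on the wide peaks of this TF (median 1236 bp in EpiSCs), whose midpoints lay 927 bp and 1022 bp upstream of the start in the median. With the midpoint required inside the promoter window, POU3F1 was at 2 promoters in EpiSCs (3.45%, all starts 1.12%) and at 1 in activin-free cultures (1.72%, all starts 2.08%), so that the order was turned in the second. POU5F1 was then at 3 (5.17%, all starts 0.738%) and 6 (10.34%, all starts 1.58%).

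Many variable exon promoters are poor in G and C, with a median of 46.1% against 54.7% for all gene starts. Among starts with under 50%, 5.88% of 51 variable exons and 14.8% of 7341 gene starts had a ZIC2 peak in EpiSCs, and 3.92% and 12.8% in activin-free cultures. For POU3F1 the shares at such starts were 17.6% and 9.11% in EpiSCs and 17.6% and 8.95% in activin-free cultures, and for POU5F1 5.88% and 3.71%, and 25.5% and 9.54%. The differences were therefore in the same direction and smaller than over all starts. Of the 6 variable exons with 50 to 60%, 5 had a ZIC2 peak in EpiSCs and 4 in activin-free cultures, and 84.2% and 81.3% of gene starts of that composition did.

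**Figure D3:**
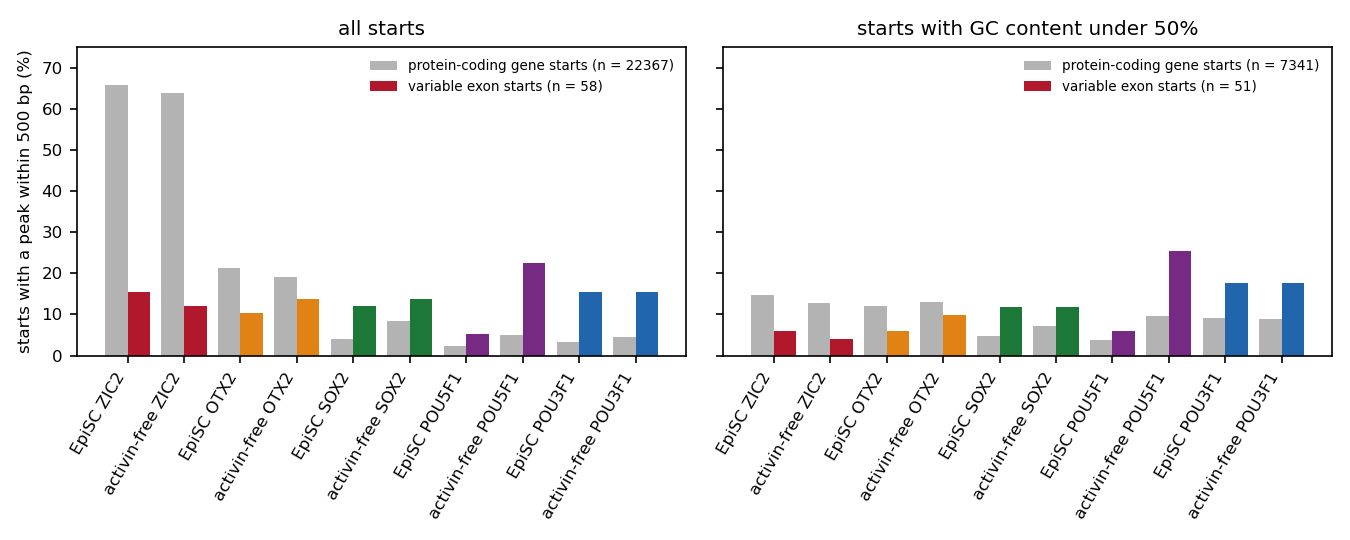
Percentage of starts with a peak within 500 bp in each list, for protein-coding gene starts (grey) and variable exon starts (coloured), over all starts on the left and over starts with under 50% G and C on the right. ZIC2 bars of the variable exons are lower and those of the POU factors higher than the grey bars, and the gap for ZIC2 is smaller on the right.

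The 3 clusters shared this unequally. In the alpha cluster 11 of 14 promoters had a peak of some list, in the beta cluster 16 of 22 and in the gamma cluster 9 of 22, or 78.6%, 72.7% and 40.9%. Over all gene starts 76.0% had one, mostly of ZIC2, so that alpha and beta were near this share and gamma was below it. None of the gamma promoters had a POU5F1 or POU3F1 peak in EpiSCs, and 1 for each did in activin-free cultures (Pcdhgb1 with a POU5F1 score of 115 and Pcdhga7 with a POU3F1 score of 120.0). In EpiSCs a POU3F1 peak of 68.7 ended 183 bp outside the Pcdhga7 window. In total, 22 promoters had no peak in any list, 28 had peaks in 1 or 2 lists and 8 in 3 or more. The score of a peak is -10 times the log10 of its p-value and was at least 50 for every peak.

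**Figure D4:**
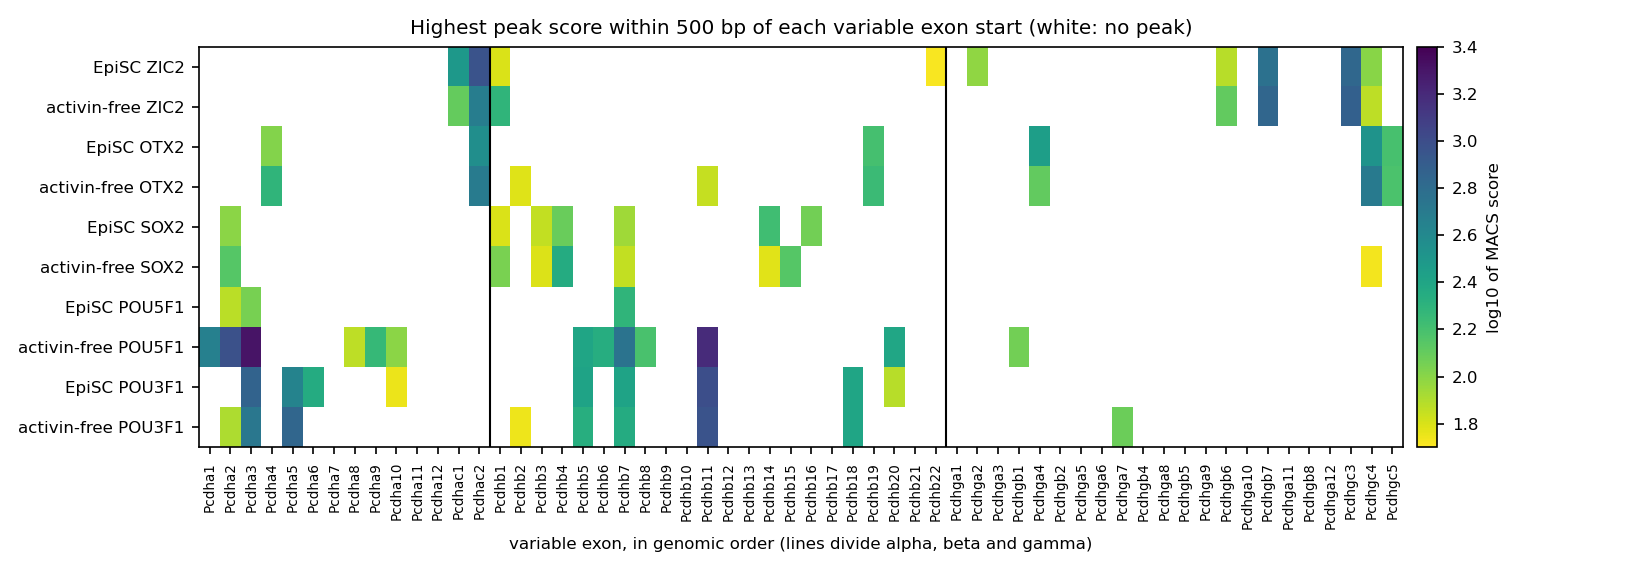
Highest score of a peak that overlaps the promoter of each of the 58 variable exons, as log10, with 1 column per exon in genomic order and 1 row per list. ZIC2 squares collect at C-type exons and the downstream gamma exons, POU squares at the alpha and beta exons, and most columns of the gamma cluster are empty.

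In each culture the highest ZIC2 score at a promoter belonged to a C-type exon. At Pcdhac2, the last alpha exon, the ZIC2 peak chr18:37302909-37304669 had a score of 921 in EpiSCs and 475 in activin-free cultures, and OTX2 had 361 and 495. Pcdhac2 also had the promoter richest in G and C (67.3%). At Pcdhac1 the ZIC2 scores were 309.5 and 126, and no other TF overlapped the promoter window. The ZIC2 peaks themselves overlapped stronger POU3F1 peaks, of 902 in EpiSCs and 799.8 in activin-free cultures, which ended 93 bp and 6 bp short of the window.

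The gamma C-type exons differed from one another. At Pcdhgc3 the ZIC2 scores were 679 and 755, with no other TF. At Pcdhgc4 OTX2 was the strongest, with 338 and 504, beside ZIC2 with 100.8 and 74.6 and SOX2 with 54.1 in activin-free cultures only. Pcdhgc5, the last gamma exon, had OTX2 peaks of 156 and 152 and no ZIC2 peak at its promoter. Within 500 bp of the start no C-type exon had a POU5F1 or POU3F1 peak, although for Pcdhac1 this rests on the width of the window.

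Among the other gamma exons, Pcdhgb7 stood out with ZIC2 scores of 586 and 688, and the peak chr18:37910958-37911857 spanned the start. Pcdhgb6 had ZIC2 scores of 75.8 and 128. Pcdhga1, the first gamma exon, had no peak in any list. The 9 promoters with a ZIC2 peak in either culture had a median of 50.5% G and C and the 49 without had 45.2%. A stretch of 5 G or C bases, 1 A or T and 5 G or C bases, the kind of sequence known for ZIC proteins, was present in 7 of the 9 and in 20 of the 49, and in 61.5% of the windows around all gene starts. By cluster it was present at 11 of 14 alpha, 4 of 22 beta and 12 of 22 gamma starts. ZIC2 peaks in EpiSCs were at 2 alpha, 2 beta and 5 gamma promoters, so most alpha promoters held the stretch without a ZIC2 peak.

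The POU factors led at the upstream end of the alpha cluster. Pcdha3 had POU5F1 scores of 112 in EpiSCs and 2035 in activin-free cultures, the highest score of the whole region, and POU3F1 scores of 726 and 529. The POU5F1 peak with this score, chr18:37103687-37106098, exceeded 94.0% of the peaks of its list. Pcdha2 had POU5F1 scores of 75.2 and 948, SOX2 scores of 98.3 and 141, and a POU3F1 peak of 80.8 in activin-free cultures. The EpiSC list had a POU3F1 peak of 305 there that ended 337 bp outside the window. At Pcdha1, the first alpha exon, the single peak was POU5F1 in activin-free cultures, with a score of 458.

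In the beta cluster, Pcdhb7 had peaks in more lists than any other promoter, 6 of 10. Its scores were 195 and 569 for POU5F1, 257 and 226 for POU3F1, and 88.2 and 72.0 for SOX2 in EpiSCs and activin-free cultures. Pcdhb11 had POU3F1 scores of 986 and 919.9, a POU5F1 score of 1543 in activin-free cultures and an OTX2 score of 70.5 in activin-free cultures. The EpiSC list had a POU5F1 peak of 87.8 at the same site, chr18:37579103-37580463, which ended 109 bp before the window. At Pcdhb5 the POU3F1 scores were 258 and 214, and POU5F1 had 250.3 in activin-free cultures. These 3 promoters had POU3F1 in both cultures, and the POU5F1 score at the site was higher, or a POU5F1 peak was listed at all, in the activin-free list.

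The ends of the beta cluster were different. Pcdhb1, the first beta gene, had no POU peak at its promoter. It had ZIC2 scores of 62.2 and 195 and SOX2 scores of 62.9 and 109.8. Pcdhb22, the last, had only a ZIC2 peak of 52.4 in EpiSCs at the promoter, close to the lowest score listed, and ZIC2 peaks of 233 and 251 over the downstream end of its exon. SOX2 was at the promoters of 6 beta genes in each culture, 5 of them the same (Pcdhb1, Pcdhb3, Pcdhb4, Pcdhb7 and Pcdhb14).

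The stretches that hold the constant exons, which are mostly intron and flank, carried different TFs. From the first gamma constant exon to 5 kb past the last (21.9 kb), ZIC2 had 6 peaks in each culture, which covered 10.90 kb and 7.18 kb. In EpiSCs the last of them, chr18:37999325-38004556, ran over the third constant exon to the downstream end of Diap1, which encodes an actin-nucleating formin and is transcribed towards the gamma cluster. Its score of 1201 was the highest ZIC2 score of the region, and the activin-free list also had its highest ZIC2 peak there, with 1018. OTX2 and POU5F1 had no peak in this stretch in either culture, SOX2 had 2 and 1 and POU3F1 0 and 1. Of the gamma constant exons themselves, the third was overlapped by ZIC2 and SOX2 in both cultures and the first by ZIC2 in EpiSCs.

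Across the alpha constant exons and the 5 kb past them (36.5 kb), ZIC2 had no peak in either culture. OTX2 had 5 and 7, SOX2 5 and 4, POU5F1 2 and 3, and POU3F1 1 and 2. In this stretch the highest score was 866, for the POU5F1 peak chr18:37318979-37320629 in activin-free cultures, where the EpiSC score was 156. This peak reached into the second constant exon. SOX2 and POU5F1 overlapped the third in activin-free cultures, and no other peak lay on an alpha constant exon.

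The strongest peaks of the lists were mostly not at promoters. For POU3F1 they were chr18:37258681-37262215, 10.7 kb downstream of the Pcdhac1 start (1136 in EpiSCs), and chr18:37282599-37284793, 19.9 kb upstream of the Pcdhac2 start (1800 in activin-free cultures). Both sites were bound in both cultures, with 1600.0 at the first and 633 at the second in the other list. For POU5F1 in EpiSCs the highest was chr18:37658630-37661215, at the downstream end of Pcdhb19, with 572, where the activin-free list had 1976.

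The highest SOX2 peaks, of 373 in EpiSCs and 300.5 in activin-free cultures, lay 23.7 and 17.3 kb upstream of the Pcdhac1 start. Those of OTX2 were in Diap1, 30.7 and 30.5 kb downstream of the Pcdhgc5 start, with scores of 735 and 739.6. Further OTX2 peaks of 419 and 478 lay between Taf7, which encodes a subunit of TFIID, and 3222401L13Rik. One site in Diap1, chr18:38042758-38044842, had peaks in 9 of the 10 lists, all but EpiSC SOX2, and its scores ranged from 52.9 for ZIC2 in EpiSCs to 1701 for POU5F1 in activin-free cultures. This site is a chain of overlapping peaks, and in EpiSCs its ZIC2 and POU3F1 peaks ended before its POU5F1 peak began.

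Overlap between TFs in the region was near that of the whole lists for some pairs and not for others. In EpiSCs, 13 of 24 POU5F1 peaks (54.2%) overlapped a POU3F1 peak and 11 of 42 POU3F1 peaks (26.2%) a POU5F1 peak, against 51.7% and 28.0% over the lists. In activin-free cultures the shares were 37.7% and 65.9%, against 46.3% and 54.6%. ZIC2 and OTX2 met in 18.4% of the ZIC2 and 15.4% of the OTX2 peaks in EpiSCs (14.8% and 17.8% over the lists) and in 14.8% and 7.02% in activin-free cultures (12.7% and 12.04%). ZIC2 overlapped SOX2 more often than over the lists, in 4 of 38 peaks (10.5%, 2.74% over the list) in EpiSCs and 5 of 27 (18.5%, 4.88%) in activin-free cultures. Of the SOX2 peaks, 10.26% and 11.1% overlapped ZIC2, against 5.27% and 6.09%. ZIC2 and POU3F1 overlapped in 2 peaks of either list in each culture. This was 5.26% and 7.41% of the ZIC2 peaks, against 1.16% and 1.89% over the lists, and 4.76% and 4.88% of the POU3F1 peaks, against 1.27% and 2.02%. SOX2 and POU3F1 met less often than over the lists in activin-free cultures, in 3 of 45 SOX2 peaks (6.67%, 16.4% over the list) and 3 of 41 POU3F1 peaks (7.32%, 13.7%). In EpiSCs these shares were 12.8% and 9.52%, against 17.7% and 9.81%. The shares of ZIC2 with SOX2 or POU3F1 and of SOX2 with POU3F1 each rest on 5 or fewer peaks. When 50% of the width of both peaks had to be shared, 1 peak of either list was left for ZIC2 and OTX2 in EpiSCs and none in activin-free cultures.

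Between the cultures, the overlap was below that of the lists for EpiSC SOX2, EpiSC ZIC2 and activin-free POU5F1 peaks and nearer to it for the other 7 lists. Of the EpiSC peaks of the region, 65.8% of ZIC2, 89.7% of OTX2, 61.5% of SOX2, 100% of POU5F1 and 83.3% of POU3F1 peaks overlapped a peak of the same TF in activin-free cultures, against 78.9%, 78.1%, 77.6%, 98.3% and 82.6% over the lists. In the other direction the shares were 100%, 57.9%, 53.3%, 30.4% and 85.4%, against 91.2%, 67.5%, 55.9%, 47.1% and 86.8%. The whole-list value was outside the 95% Wilson interval of the region for these 3 lists (45.9 to 75.1%, 49.9 to 78.8% and 20.8 to 42.1%, respectively), for EpiSC ZIC2 only just. The intervals cover counting error only, take peaks as independent and were not adjusted for the number of lists. Among the 50000 highest-scoring peaks of each list the region shares were 51.7%, 80% and 68.4%, respectively. Whole-list shares for that setting were not computed. Chromosome 18 held 5.88% of the EpiSC SOX2 list. The activin-free SOX2 list was 0.884 times as long as the EpiSC list on that chromosome and 1.38 times as long over all chromosomes. Overlap for chromosome 18 alone was not computed, so it is unknown whether the lower EpiSC SOX2 share is particular to the region. Peaks without a partner had lower scores in the 8 lists that had both kinds, with median scores of 63.5 to 130.5 against 118.5 to 533 for those with one.

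**Figure D5:**
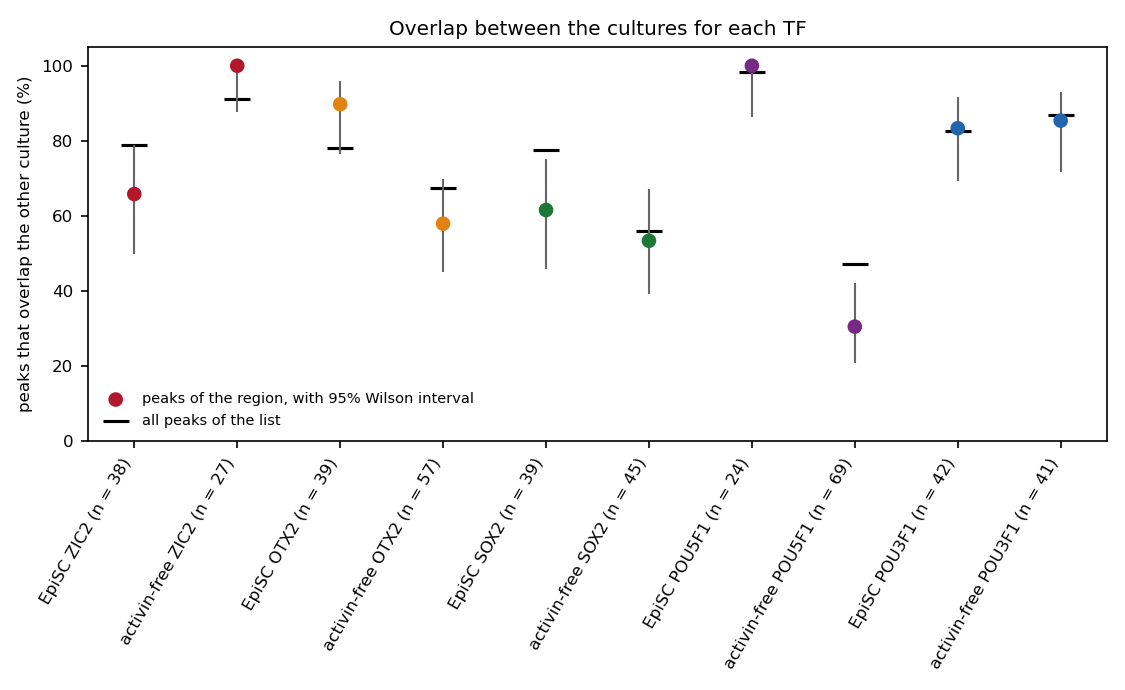
Percentage of the region peaks of each list that overlap a peak of the same TF in the other culture (coloured points, with 95% Wilson intervals), and the same for all peaks of the list (black marks). The lowest point is activin-free POU5F1 at 30.4%, below its black mark at 47.1%.

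POU5F1 gave the widest difference in number between the cultures, 24 peaks against 69, with 3 promoters against 13. All 24 EpiSC peaks were matched, and 10 promoters (Pcdha1, Pcdha8, Pcdha9, Pcdha10, Pcdhb5, Pcdhb6, Pcdhb8, Pcdhb11, Pcdhb20 and Pcdhgb1) had a POU5F1 peak within the window in the activin-free list alone. At 1 of the 10, Pcdhb11, that peak overlapped an EpiSC peak outside the window. The activin-free list was also 2.03 times as long over all chromosomes. With every list limited to its 50000 peaks of highest score, the region held 20 POU5F1 peaks in EpiSCs and 19 in activin-free cultures. ZIC2 numbers were 38 and 27, and among peaks of score 100 or more 21 and 20. How far list length, depth or the removal of activin contributed cannot be told apart.

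Short binding sequences known for the TFs were looked for within 100 bp of the peak midpoints on both strands, a search chosen after the peak positions were known. The SOX-type words ACAAAG or ACAATG were near 66.7% of EpiSC and 60% of activin-free SOX2 peaks, against 57.4% and 55.5% over the lists and 32.7% of equal windows along the region. The OTX-type word GGATTA was near 20.5% and 15.8% of OTX2 peaks, against 23.6% and 21.8% over the lists and 8.92% of windows. For the octamer ATGCAAAT, the word of POU factors, the counts were 1 of 24 and 4 of 69 POU5F1 peaks and 1 of 42 and 1 of 41 POU3F1 peaks. These are 4.17%, 5.80%, 2.38% and 2.44%, against 6.48%, 5.06%, 4.69% and 4.90% over the lists and 1.87% of windows. The POU3F1 shares were thus below those of the lists, on 1 peak each. The word CCTGCTG was near 18.4% and 22.2% of ZIC2 peaks, against 19.1% and 21.0% over the lists and 3.22% of windows.

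The SOX-type words were also near peaks of other TFs more often than over the lists. They were near 44.7% of EpiSC and 44.4% of activin-free ZIC2 peaks of the region, against 18.0% and 18.2% over the lists. Of the 19 EpiSC ZIC2 peaks that overlapped a variable exon 11 held one, and of the other 19 peaks 6 did. Windows inside variable exons held these words in 42.8% of cases. For POU5F1 the shares were 41.7% and 40.6%, against 27.7% and 28.9% over the lists, and for POU3F1 42.9% and 39.0%, against 31.6% and 30.9%. For OTX2 they were 28.2% and 24.6%, against 28.3% and 29.96%. GGATTA was near none of the 38 and 27 ZIC2 peaks, against 3.98% and 3.90% over the lists.

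Protocadherins outside the clusters had peaks at their starts about as often as genes in general. Of 12 nonclustered genes, 7 had a ZIC2 peak in each culture (58.3%, all starts 65.7% and 63.9%) and 2 had OTX2 (16.7%, all starts 21.2% and 19.1%). None had SOX2, POU5F1 or POU3F1, which 2.27 to 8.37% of all starts had. Pcdh1, located on the same chromosome, had ZIC2 scores of 3100.0 in both cultures, Pcdh8 had 2231 and 2320.3, and Pcdh15 2350.2 and 3100.0. The value 3100.0 recurred exactly, and whether scores have an upper limit there was not examined. Pcdh7, Pcdh11x, Pcdh12 and Pcdh18 also had ZIC2 in both cultures, at 60.5 to 473, and Pcdh9, Pcdh10, Pcdh17, Pcdh19 and Pcdh20 had no peak at the start in any list.

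Genes of the machinery known to act on the clusters had ZIC2 peaks at their starts at a higher share than genes in general. In each culture 11 of the 12 genes had one (91.7%, all starts 65.7% and 63.9%). The G and C content of these 12 starts was not compared. Over all gene starts, the ZIC2 share in EpiSCs was 14.8% under 50% G and C, 84.2% at 50 to 60% and 98.9% at 60% or more. The genes with ZIC2 included Ctcf, with scores of 1243 and 1415, the cohesin subunit genes Rad21 (771 and 1178), Smc3 (1017 and 1513) and Stag2 (532 and 1458), the cohesin loader Nipbl (871 and 537) and the release factor Wapal (601 and 651). Smc1a and Stag1, both cohesin genes, had ZIC2 in 1 culture each, with 72.5 in activin-free cultures and 81.0 in EpiSCs. Smchd1 (1958 and 2703), Dnmt3b (1324 and 1479) and Setdb1 (210.3 and 396), which encode proteins of gene silencing, and Rest (804 and 787), a repressor of neuronal genes, had ZIC2 in both. OTX2 was at 2 of the 12 starts in EpiSCs and 3 in activin-free cultures (16.7% and 25%, all starts 21.2% and 19.1%). These were Rest (846 and 847), Smchd1 (76.3 and 159.7) and, in activin-free cultures only, Rad21 (341.7). SOX2, POU5F1 and POU3F1, which 2.27 to 8.37% of all starts had, were at none of the 12 starts.

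Of the other protein-coding genes inside the region, Slc25a2, a mitochondrial carrier gene, had OTX2 scores of 192 and 351.5 at its start and Taf7 had ZIC2 scores of 113 and 184 with an OTX2 peak of 57.4 in EpiSCs. The start of 3222401L13Rik had ZIC2 scores of 135 and 71.9 with SOX2 at 56.9 in EpiSCs, and Gm6756 and Gm10545 had no peak at theirs. Diap1 starts outside the region, where ZIC2 had 1041 and 1303 and POU3F1 89.2 in activin-free cultures.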

How the data were processed

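Reads had been aligned to mm9 by the authors (Bowtie2), and peaks were called by MACS1.4 against the sequenced input, with default settings apart from a band width of 150 bases. The deposited lists give for each peak its position and a score, -10 log10 of the p-value by MACS, and hold no counts or coverage. The only control sample came from EpiSCs with activin, so the activin-free lists had no control from their own culture. The input was not analysed here. Sonicated fragments had a length of about 150 bp.

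Positions are counted from 1. Clusters, gene starts and sequence were taken from GENCODE vM1 and NCBIM37, the assembly behind mm9. In that annotation the alpha and gamma exons are merged into single genes, so reading frames of at least 1800 bp were located and named where their distance to the cluster end was within 1500 bp (at most 1344 bp) of the gene length in RefSeq (GRCm38.p6, names only). Overlap was counted from 1 shared bp. Shares were described beside those of all peaks or of 22367 gene starts on chromosomes 1 to 19, X and Y, with no test, since each group had 1 library.

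Named were promoters with a peak in 3 or more lists, C-type exons, the first and last exon of each cluster, the highest peak of each list, neighbouring genes, and lists of nonclustered protocadherins and regulators. Pcdhgb6, Pcdhgb7, Pcdhgb1 and Pcdhga7, Pcdha8 to Pcdha10, the remaining beta genes, and the places within and around exons were named after their values were seen. Members and lists were chosen with earlier results of these data known. Settings varied were scores, list lengths, windows and overlaps (2 of them added later). The overlap steps were tested on simulated peaks. Python 3.11.15, numpy 2.4.6, pandas 2.3.3, scipy 1.17.1 and matplotlib 3.10.9 were used.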

Additional observations from a re-analysis of the deposited data

Results flagged for a closer look

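The number of ZIC2 peaks in the region was lower in the activin-free list than in the EpiSC list, at 0.711 times, while that of POU5F1 peaks was higher, at 2.88 times. The 2 TFs thus differed in direction, and with 1 library per TF and culture this difference was not tested. Over all chromosomes the activin-free lists were 0.895 times as long for ZIC2 and 2.03 times as long for POU5F1. With every list limited to its 50000 peaks of highest score, there were 10 and 9 ZIC2 peaks and 20 and 19 POU5F1 peaks in EpiSCs and activin-free cultures.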

How the results depend on the processing

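Of 192 values recomputed under other settings, 133 stayed within 1.5 times the reported count or within the 95% Wilson interval of the reported share, and 59 moved. Merging of peaks, assignment of a peak to every cluster it overlaps, windows of 1000 bp, annotated starts only and a gamma cluster from Pcdhga1 moved none. The annotated starts still included those that are also start codons. In the order ZIC2, OTX2, SOX2, POU5F1, POU3F1, region peaks that moved were, with a score of at least 100, 21, 20, 16 and 13 in EpiSCs (the first 4) and 34 for OTX2, 20 for SOX2 and 27 for POU3F1 in activin-free cultures. With the 50000 highest-scoring peaks they were 10 for ZIC2, 20 for OTX2 and 22 for POU3F1 in EpiSCs and 9, 26, 23, 19 and 19 in activin-free cultures. By cluster, a score of at least 100 left, in alpha, 4 OTX2, 6 SOX2 and 7 POU5F1 peaks in EpiSCs and 6 SOX2 peaks in activin-free cultures. In beta it left 1 ZIC2, 6 SOX2, 4 POU5F1 and 12 POU3F1 peaks in EpiSCs and 1 ZIC2, 3 OTX2 and 9 SOX2 peaks in activin-free cultures. In gamma it left 0 POU5F1 and 0 POU3F1 peaks in EpiSCs and 3 OTX2, 1 SOX2 and 1 POU3F1 peak in activin-free cultures. Promoters with a peak of at least 100 were 5 for ZIC2 and 3 for SOX2 in EpiSCs and 4 for SOX2 in activin-free cultures. With the 50000 highest-scoring peaks they were 4 for ZIC2 in EpiSCs and 3, 5, 4, 5 and 5 in activin-free cultures, and a window of 250 bp gave 5 for activin-free SOX2. With the midpoint inside the window they were 4 for SOX2 and 2 for POU3F1 in EpiSCs and 6 for POU5F1, 5 for SOX2, 4 for OTX2 and 1 for POU3F1 in activin-free cultures. Overlap between the cultures among the 50000 highest-scoring peaks was 80% for EpiSC ZIC2, 80% for EpiSC POU5F1, 68.4% for activin-free POU5F1 and 94.7% for activin-free POU3F1, and with 50% of both peaks shared it was 70.8% for EpiSC POU5F1. That rule gave 2.63% of ZIC2 and 2.56% of OTX2 peaks for their overlap in EpiSCs and 0% of either in activin-free cultures, 48.8% of activin-free POU3F1 peaks with POU5F1, and 0% for activin-free ZIC2 and POU3F1 in both directions. The cause was not tested. No paired analysis was possible because each TF had 1 library per culture and no test was run. Depth is unknown and limits every absence of a peak.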
